A study of Mus musculus with 105 samples.

Results

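The comparison described here asks which mRNAs kept a different share of their starting level after 3 h without new transcription in activated and in resting mouse CD4+ T cells. It rests on 12 RNA sequencing libraries from 4 of the study's 35 groups, namely the triptolide libraries at 0 h and 3 h of both states, with 3 libraries in each group. For each gene, the change from 0 h to 3 h in resting cells was subtracted from the change in activated cells, on exon counts. A positive log2 difference therefore means that a larger share of the 0 h level was left in activated cells. A negative one means that a larger share was left in resting cells. Of 22322 genes in the table, 10741 had enough counts to be tested, and 7403 of these had a mean of 10 CPM or more (counts scaled to the size of the library) at 0 h in both states. The CPM minimum keeps apart mRNAs that were present at the start from near-silent genes whose counts appeared during the 3 h, and the results below concern these 7403 genes unless stated.

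The cells were primary CD4+ T cells from spleen and lymph nodes of female C57BL/6J mice aged 6 weeks, purified by negative selection. No genetic change was made, and no group carries a transgene. Activated cells had been stimulated with beads that carry antibodies to CD3 and CD28, for a time that the labels do not give, and resting cells had not. In the 12 libraries both states received triptolide at 25 µM and no other agent, and RNA was extracted from equal numbers of cells at each time. ERCC RNAs, a set of synthetic transcripts, serve as the spike-in reference. The libraries are replicates 2, 3 and 4 of each group. The labels call them biological replicates, but do not say which mice a number stands for. The p-values therefore measure the spread between samples of a group, pooled for each gene over all 35 groups and not the 12 libraries alone.

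Triptolide binds the XPB subunit of the general transcription factor TFIIH and stops RNA polymerase II initiation, so that mRNAs made earlier are lost at their own rates while polymerases already on a gene can still finish. Most mRNAs are degraded by shortening of the poly(A) tail, followed by removal of the cap and digestion from the 5′ end, or by the exosome from the 3′ end. AU-rich elements in 3′ untranslated regions (3′ UTRs), recognised by proteins of the ZFP36 family and others, speed this up for many cytokine and activation transcripts. T cell activation is known to change the stability of several such transcripts, including those of growth factor and cytokine genes.

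The 12 libraries held between 672633 and 3017086 exon counts. The labels were checked on Il2ra, the high-affinity IL-2 receptor chain induced by activation, whose level at 0 h was 636, 238 and 354 CPM in activated libraries against 57.3, 41.5 and 29.1 CPM in libraries of resting cells, without overlap. All 12 of the CD4 T cell marker genes in the table were detected in every library, with a summed level of 4180 to 6510 CPM, and Cd8a did not exceed 3.3 CPM. Markers of B cells and MHC class II summed to 82.1 to 224 CPM in activated cells at 0 h and 114 to 569 CPM at 3 h, against 162 to 838 CPM and 351 to 1540 CPM in resting cells, with the immunoglobulin light chain Igkc in the lead. Macrophage, monocyte and neutrophil markers summed to at most 36.8 CPM, CD8 T cell and NK cell markers to at most 56.9 CPM and erythroid markers to at most 32.9 CPM. The part of such cells in the differences below was not tested. Activated replicate 3 at 3 h was the shallowest library and stood apart in its ratio of exon counts to spike-in counts, 14.7 against 8.44 and 6.90 in the other two activated libraries.

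The total left after 3 h did not differ detectably between the states. Exon counts per ERCC count fell to 42.7% of the 0 h level in activated cells, with log2 changes of -1.78, -0.51 and -1.40 in the 3 replicates, and to 43% in resting cells, with changes of -1.17, -1.21 and -1.28. The activated values lie on both sides of the resting ones (difference -0.01 log2; exact permutation test, two-sided, p = 1; the smallest p that 3 against 3 allows is 0.1). In bulk RNA, fewer cells of a type and less RNA per cell cannot be told apart. The values that follow are therefore changes relative to the rest of the mRNA of a library (TMM-scaled), and spike-in-scaled values are given where they are named as such.

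Between the states, 633 of the 7403 genes differed in their 3 h change (8.55%; edgeR quasi-likelihood test, Benjamini-Hochberg adjusted p under 0.05 over all 10741 genes tested). Of these, 395 (5.34%) kept a larger share of their 0 h level in activated cells, called left higher here. The other 238 (3.21%) kept a smaller share, called left lower. These words refer to the change and not to the level at 3 h. Gfi1, left lower, had a mean of 77.2 CPM at 3 h in activated and 29.6 CPM in resting cells. Cd28, left higher, had 314 and 378 CPM. The median difference was 1.32 among the 395 genes and -1.12 among the 238, against -0.04 over all 7403 genes. The log2 changes of the 3 replicates did not overlap between the states in 374 of the 395 and in 231 of the 238 genes, against 14.7% and 15.8% of all 7403 genes in these directions. These changes subtract by replicate number and come from the libraries that gave the calls. The counts therefore describe the called genes and are no separate check of them. The split depends on the scaling: with the spike-ins as reference 170 genes were called higher and 13 lower, with library size alone 538 and 122, and with the mitochondrially encoded mRNAs as reference 13 and 74, and the median of all genes then stood at 0.06, 0.09 and -0.53. Under each of these scalings all 633 genes kept the sign of their difference. A scaling shifts all genes by about the same amount, so the kept sign is no separate check of the calls. Fitting a block for same-numbered libraries within each state called 1597 genes (21.6%), 844 higher and 753 lower, with all 633 among them.

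Most of the differences came with a change in resting cells. Within the single states, 4052 of the 7403 genes (54.7%) changed relative to the rest of the mRNA over 3 h in activated cells, 22% upwards and 32.7% downwards, and 4775 (64.5%) in resting cells, 27.7% upwards and 36.8% downwards. Of the 395 genes left higher in activated cells, 323 fell in resting cells, 4 rose and 68 did not pass the test there, while in activated cells 121 rose, 81 fell and 193 did not pass the test. Their median change was 0.09 in activated and -1.30 in resting cells. Scaled on the spike-ins, a median of 34.8% of these mRNAs was left in activated cells and 12.1% in resting cells. Of the 238 genes left lower in activated cells, 176 rose in resting cells relative to the other mRNAs, 11 fell and 51 did not pass the test, and in activated cells 36 rose, 83 fell and 119 did not pass. The spike-in-scaled medians of this group were 30.6% in activated and 60.3% in resting cells, against 29.5% and 27.4% over all 7403 genes. These arms were used to find the genes and are given as a description of them.

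**Figure D1:**
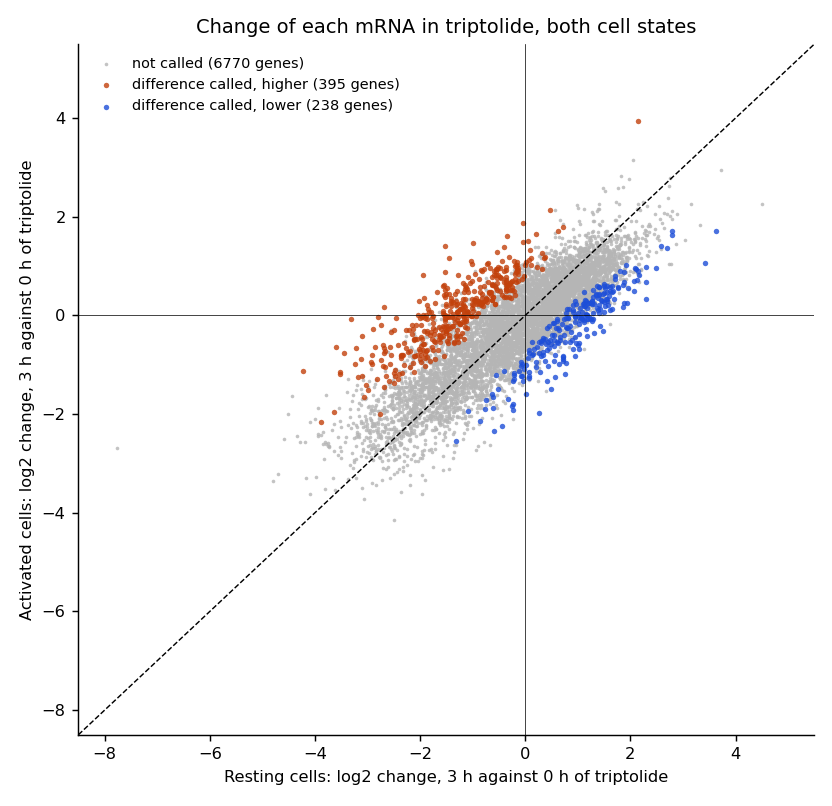
Change from 0 h to 3 h of triptolide for 7403 genes (log2, TMM-scaled exon counts), in resting cells on the horizontal axis and in activated cells on the vertical axis; each point is a gene, and the dashed line marks an equal change. The 395 genes called higher in the difference lie above the line, mostly left of zero, and the 238 called lower lie below it, mostly right of zero.

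The hypoxia-inducible transcription factor subunit Hif1a (chromosome 12, 73901375 to 73947530, plus strand, mm10) had the smallest p among transcription factors of the interferon regulatory and lineage list. Its level was 551, 513 and 612 CPM in activated cells at 0 h and 763, 656 and 859 CPM at 3 h, while resting libraries had 611, 409 and 384 CPM before and 188, 160 and 207 CPM after the 3 h. All 3 activated libraries at 3 h lie above all 3 at 0 h, and all 3 resting libraries at 3 h lie below all at 0 h. The difference was 1.78 ± 0.24 (log2 ± SE, n = 3 per group; edgeR adjusted p = 2.14e-07), and per spike-in 45.3% of the mRNA was left in activated cells against 11.9% in resting cells. The call held in each of the 25 alternative analyses.

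Usmg5, Nop10 and Mrpl36 were among the 12 largest positive differences called. Usmg5, a small subunit associated with ATP synthase, stood at 18.5, 18.4 and 28.5 CPM in activated cells at 0 h and at 59.9, 19.1 and 58.1 CPM at 3 h, and in resting cells at 54.7, 27.5 and 37.5 CPM and then at 11.6, 13.8 and 16.9 CPM. Activated replicate 3 at 3 h lies within the range of the 0 h libraries and the other two lie above it, and the resting libraries did not overlap between the times. The difference of Usmg5 was 2.61 ± 0.41 (adjusted p = 1.2e-05). Nop10, a protein of the H/ACA particles that guide RNA pseudouridylation, went from 25, 47.4 and 51.2 CPM to 65.6, 43.5 and 103 CPM in activated cells and from 42.9, 37.7 and 41.8 CPM to 9.97, 6.91 and 13.8 CPM in resting cells. For Nop10 the difference was 2.77 ± 0.47 (adjusted p = 3.98e-05), with 55.1% left per spike-in in activated and 7.59% in resting cells. Mrpl36, a protein of the large mitochondrial ribosomal subunit, had a difference of 2.96 ± 0.71 (adjusted p = 0.00443) that rests on 2, 1 and 1 counts in the resting libraries at 3 h. Usmg5 overlaps Taf5 and Mrpl36 overlaps Ndufs6 on the other strand; whether the counting used strand is not given in the sources used here, so reads of these partners cannot be told apart.

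Snapc1, Lfng and Amd1 were also among these 12. Snapc1, a subunit of the complex that activates small nuclear RNA genes, rose in activated cells from 24.4, 17.9 and 23.3 CPM to 62.7, 62.6 and 47.6 CPM and fell in resting cells from 41.3, 33.7 and 36.5 CPM to 9.97, 12.8 and 14.6 CPM (difference 2.92 ± 0.36, adjusted p = 2.23e-08). With DRB, an inhibitor of transcription elongation, in place of triptolide in the activated cells, the Snapc1 difference was 0.27 and no longer called. Lfng, a glycosyltransferase that modifies Notch receptors, was at 156, 350 and 283 CPM and then 212, 350 and 219 CPM in activated cells, which overlap, and fell from 481, 637 and 564 CPM to 91.4, 64.2 and 86.1 CPM in resting cells (2.78 ± 0.55, adjusted p = 0.00053). Amd1, the decarboxylase that commits S-adenosylmethionine to polyamine synthesis, differed by 2.84 ± 0.57 (adjusted p = 0.000555), with 34.8% left per spike-in in activated and 4.37% in resting cells. The alpha-tubulins Tuba1c and Tuba1a had differences of 3.22 and 3.09, the largest of the called genes at 10 CPM (predicted genes and pseudogenes left out), but are near-identical in sequence, so that how reads were shared between them is uncertain. The remaining members of these 12 were Alg5, which makes dolichyl-phosphate glucose for protein glycosylation (2.69), Cbll1, the E3 ligase Hakai (2.66, with Gm29542 on the other strand), the T cell receptor beta variable segment Trbv5 (2.61) and Lsm3 (2.56), described with the decay factors below. Several of these differences rest on few reads in the resting libraries at 3 h, so their size and rank are uncertain. The counts there were 0, 0 and 6 for Tuba1c, 2, 2 and 3 for Alg5, and 4, 1 and 3 for Cbll1. They were 2, 3 and 3 for Trbv5, 2, 3 and 5 for Lsm3, and 4, 2 and 25 for Amd1.

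**Figure D2:**
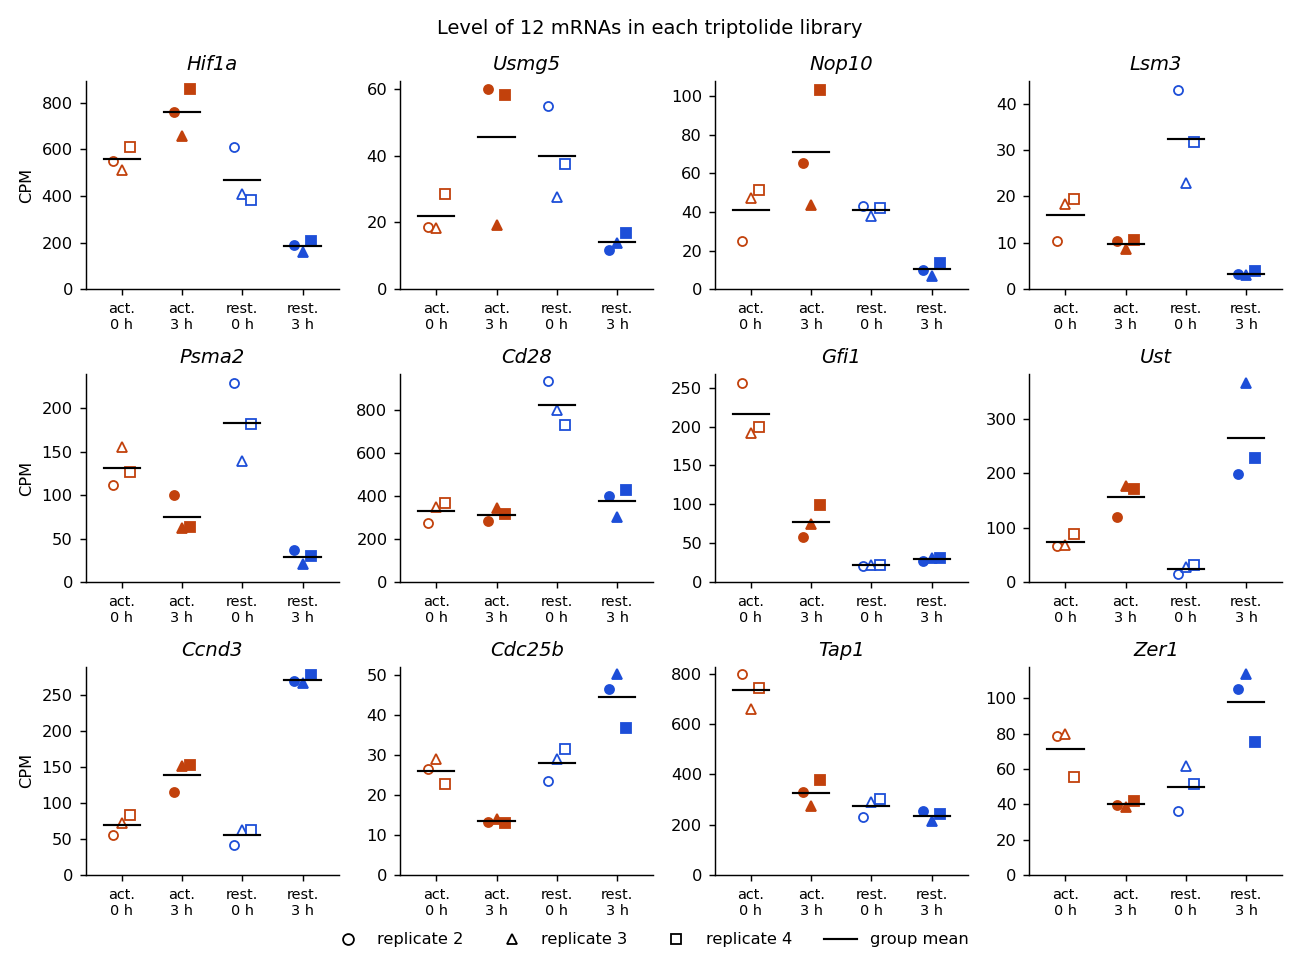
Level in CPM (TMM-scaled, linear axes from 0) of 12 named genes in each triptolide library; open symbols are 0 h and filled symbols 3 h, circles, triangles and squares are replicates 2, 3 and 4, and bars are group means of 3 libraries. In resting cells the 3 h values of Hif1a, Usmg5, Nop10, Lsm3 and Psma2 all lie below their 0 h values, whereas those of Ust, Ccnd3 and Zer1 all lie above.

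Among the genes left lower in activated cells, Gfi1, a zinc-finger transcriptional repressor active in T cell development and activation (chromosome 5, 107716657 to 107726036, minus strand), was lost mainly from activated cells. Its level fell there from 256, 192 and 200 CPM to 57.6, 74.8 and 99.3 CPM, and in resting cells it was 20.6, 21.9 and 21.4 CPM at 0 h and 26.6, 30.6 and 31.5 CPM at 3 h. The activated libraries at 3 h lie below all activated libraries at 0 h, and the resting change did not pass the test (0.48, adjusted p = 0.151). The difference was -1.97 ± 0.39 (adjusted p = 0.000439), and 11.3% was left per spike-in in activated against 41.9% in resting cells. The gene A430072P03Rik overlaps Gfi1 on the other strand.

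Other negative differences belonged to mRNAs that rose relative to the rest in both states, and more in resting cells. Ust, a sulfotransferase of glycosaminoglycan synthesis, rose from 65.7, 68.2 and 89.4 CPM to 119, 177 and 172 CPM in activated cells and from 15, 27.8 and 30.8 CPM to 199, 366 and 229 CPM in resting cells (-2.37 ± 0.48, adjusted p = 0.000602). Per spike-in, the 3 h level of Ust was 73.5% of the 0 h level in activated cells but 330% in resting cells, so its exon counts grew during triptolide. Prkca, protein kinase C alpha, behaved likewise, with 353, 260 and 287 CPM and then 985, 969 and 971 CPM in activated cells against 83.8, 124 and 89.3 CPM and then 741, 1560 and 1360 CPM in resting cells (-1.93 ± 0.47, adjusted p = 0.0053; 110% and 368% per spike-in). Both genes passed the minimum of 10 CPM in both states, so this minimum did not remove every gene whose exon counts increased after the block. Over the 238 genes, 7 rose and 134 fell per spike-in in resting cells at an adjusted p under 0.05 (edgeR), and 226 fell in activated cells.

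Zer1, Bcr and Ankzf1 were also among the 12 largest negative differences called. Zer1, a substrate adaptor of a cullin E3 ubiquitin ligase, fell from 78.7, 79.8 and 55.7 CPM to 39.7, 38.3 and 42 CPM in activated cells and rose from 36.4, 61.9 and 51.5 CPM to between 75.3 and 114 CPM in resting cells (-1.79 ± 0.36, adjusted p = 0.00053). Bcr, a regulator of small GTPases, was between 29.9 and 51.8 CPM in the 6 activated libraries and rose in resting cells from 19.8, 31.8 and 29.1 CPM to 74.8, 87.8 and 63 CPM (-1.78 ± 0.31, adjusted p = 6.63e-05). Ankzf1, which acts in ribosome-associated quality control, fell in activated cells and had 13, 23.2 and 22.7 CPM at 0 h and 5.76, 1.74 and 5.65 CPM at 3 h (-2.24 ± 0.52, adjusted p = 0.00289), but overlaps Atg9a and Glb1l on the other strand. Sap130, a subunit of the Sin3 corepressor complex (-1.93), the deubiquitinase Usp21 (-1.81), the mitochondrial ribosomal protein Mrps22 (-1.81) and the potassium channel tetramerisation domain gene Kctd2 (-1.76) were also among the 12. With spike-in scaling the adjusted p was 0.0512 for Bcr, 0.0596 for Zer1 and 0.0536 for Prkca, with the same sign.

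Relative to the rest of the mRNA, opposite changes in the single states were called for some genes. Of the 395 genes left higher in activated cells, 49 rose there and fell in resting cells, as Hif1a, Usmg5, Nop10, Snapc1, Il2rg and Eif5a did. Of the 238 genes left lower, 21 fell in activated and rose in resting cells, Zer1 and Sap130 among them, and so did the cell cycle phosphatase gene Cdc25b. Cdc25b went from 26.6, 29 and 22.7 CPM to 13.2, 13.9 and 12.9 CPM in activated cells and from 23.5, 29.1 and 31.5 CPM to 46.5, 50.3 and 36.9 CPM in resting cells (-1.63 ± 0.40, adjusted p = 0.00556). These opposite directions are relative to the other mRNAs: per spike-in, 2 of the 395 genes rose and 360 fell in activated cells, and 394 fell in resting cells. Per spike-in 59.4% of Eif5a was left in activated and 21.4% in resting cells, and 15.5% and 48.6% of Cdc25b.

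Nuclear-encoded subunits of the respiratory chain were the list with the most calls in 1 direction. Of 74 at 10 CPM or more, 9 were called, all left higher in activated cells (DESeq2 called 10, and 22 had an unadjusted p under 0.05, in the same direction), against 5.34% of all 7403 genes called higher, and the list's median difference was 0.57 against -0.04. The 9 were Uqcrb and Uqcrc2 of complex III, Ndufb4 and Ndufb6 of complex I, Cox6b1 and Cox7a2 of complex IV, Atp5f1 and Atp5j of ATP synthase, and cytochrome c, Cycs. Uqcrb had the largest difference of these, 2.55 ± 0.52 (adjusted p = 0.000632), with 21.2, 21.3 and 26.6 CPM and then 23, 24.4 and 13.7 CPM in activated cells. In resting cells Uqcrb fell from 47, 31.4 and 32.1 CPM to 4.99, 2.96 and 7.68 CPM, with no overlap between the times. Among all genes with a coding length of up to 500 nucleotides, 14.2% were called higher and 0.168% lower. The part of coding length in the calls of the respiratory chain list was not tested. With the mitochondrial mRNAs as reference the list's median was 0.07, against -0.53 over all 7403 genes. The mitochondrially encoded mRNAs themselves, which another polymerase makes, had a median difference of 0.81 over 12 members, all positive (0.41 to 1.17), and 0 of 12 passed the edgeR test (1 had an unadjusted p under 0.05, and DESeq2 called 0).

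Proteasome subunits showed 8 of 44 left higher in activated cells and 1 lower, beside 5.34% and 3.21% of all 7403 genes. Their median was 0.54, and 0.04 with the mitochondrial reference, where that of all genes was -0.53. Psma2, an alpha-ring subunit, fell from 112, 155 and 126 CPM to 100, 62.6 and 62.9 CPM in activated cells and from 229, 139 and 182 CPM to 36.6, 20.7 and 30 CPM in resting cells. Both states lost this mRNA relative to others, but by -0.77 in activated and -2.68 in resting cells, and 19% and 4.69% were left per spike-in (difference 1.91 ± 0.37, adjusted p = 0.000427). The other members left higher were Psma6, Psmb2, Psmb7, Psmd1, Psmd10, Psme2 and Psme3, which span the core particle, the regulatory particle and the PA28 activators. Psmd4, the ubiquitin receptor of the regulatory particle, went the other way (-1.10).

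Cytosolic ribosomal protein genes had a median of -0.34 over 82 members, with 0 called in either direction (edgeR; DESeq2 called 1, and 4 had an unadjusted p under 0.05, 1 higher and 3 lower). Their mRNAs rose relative to others in both states, by a median of 1.21 in activated and 1.42 in resting cells. Rpsa, a small-subunit protein, was at 2840, 5210 and 3430 CPM and then 8260, 7870 and 10500 CPM in activated cells, and at 3750, 3680 and 4810 CPM and then 14100, 10100 and 13700 CPM in resting cells (difference -0.42, adjusted p = 0.604). Replication-dependent histone genes had a median of 0.74 over 20 members with 0 called by edgeR or DESeq2 and 4 at an unadjusted p under 0.05. Mitochondrial ribosomal protein genes had a median of 0.12 over 67 members, with 3 higher (Mrpl36, Mrps14 and Mrps33) and 2 lower (Mrps9 and Mrps22), of which Mrps9 passed in 6 of 25 alternatives. Over all 7403 genes 5.34% were called higher and 3.21% lower.

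Translation factors and ribosome biogenesis genes were called about as often as the 8.55% of all genes, with list medians close to that of all genes. Among 49 translation factors 4 were called, all left higher (median -0.04): Eif5a, which helps ribosomes through proline stretches, Eif1ax, and the Eif2s1 and Eif2s3x subunits of the initiator tRNA carrier. With the replicate block within state 9 were called higher and 4 lower, and for ribosome biogenesis genes 7 and 2. Eif5a rose from 505, 555 and 402 CPM to 869, 812 and 892 CPM in activated cells and fell from 211, 165 and 223 CPM to 171, 110 and 132 CPM in resting cells (1.37 ± 0.23, adjusted p = 4.73e-05). Among 58 ribosome biogenesis genes 5 were called, all left higher (median 0.04): Nop10 and Dkc1, which sit in the same H/ACA particle, Utp15, Mrto4 (which passed in 9 of 25 alternatives) and the RNA polymerase I factor Rrn3.

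Metabolic and chaperone lists gave a few calls each, to be read beside 5.34% of all 7403 genes called higher and 3.21% called lower. Of 24 glycolysis and pentose phosphate genes, 4 were called, all higher (median 0.05): Pgk1, Pgam1, the lactate transporter Slc16a1 and G6pdx. Pgk1 passed in 10 and G6pdx in 12 of 25 alternatives. Pgam1 was at 154, 190 and 132 CPM and then 130, 155 and 196 CPM in activated cells and fell in resting cells from 72.5, 64.8 and 65.9 CPM to 19.9, 22.7 and 26.1 CPM (1.55, adjusted p = 0.000519). Of 24 cholesterol and fatty acid genes, 3 were called, all higher (median 0.16): Insig1, which retains the SREBP escort protein in the endoplasmic reticulum, and the sterol enzymes Msmo1 and Sc5d. Of 27 heat shock chaperones, 4 were higher and 1 lower (median 0.13). Hsp90aa1, the inducible cytosolic HSP90, differed by 1.98 (adjusted p = 1.33e-05), and the chaperonin subunits Cct3 (1.13) and Cct4 (-0.85) were called in opposite directions. Among 42 splicing regulators 5 were higher and 2 lower (median 0.20): Hnrnpf, Hnrnpk, Hnrnpab, Hnrnph2 and Clk1 against Srsf7 and Srpk1.

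**Figure D3:**
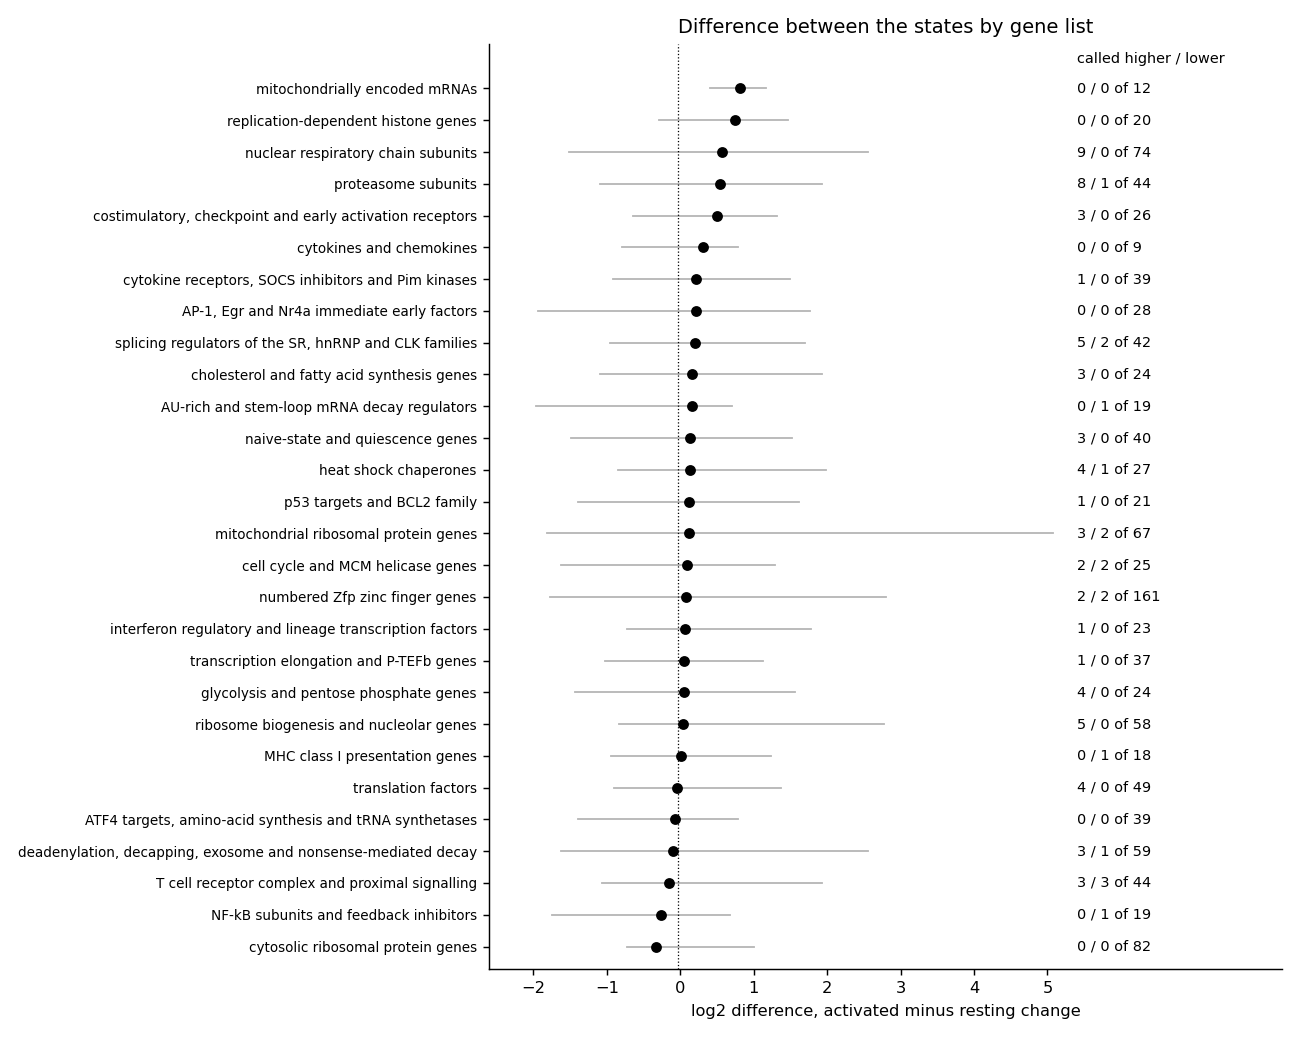
Difference in the 3 h change (log2, activated minus resting) for gene lists at 10 CPM or more in both states; dots are list medians, grey lines run from the lowest to the highest member, and the dotted line is the median of all 7403 genes (-0.04). Counts at the right give members called higher and lower. Respiratory chain subunits (9 and 0 of 74) and proteasome subunits (8 and 1 of 44) have medians above 0.5. So do mitochondrially encoded mRNAs (0 and 0 of 12), histone genes (0 and 0 of 20) and costimulatory receptors (3 and 0 of 26).

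T cell genes were called in both directions, and their counts stand beside 5.34% of all 7403 genes called higher and 3.21% called lower. Among 26 costimulatory, checkpoint and early activation receptors 3 were called, all left higher in activated cells: Cd28, Ctla4 and Tnfrsf18, which encodes GITR. The list median was 0.50, and -0.04 with the mitochondrial reference, where that of all genes was -0.53. Cd28, the receptor that the activating beads engage together with CD3, was at 276, 348 and 367 CPM and then 285, 343 and 316 CPM in activated cells and fell from 936, 799 and 730 CPM to 401, 305 and 430 CPM in resting cells. The difference of Cd28 was 1.05 ± 0.33 (adjusted p = 0.0359) and passed in 14 of 25 alternatives, and that of its inhibitory relative Ctla4 was 1.18 (adjusted p = 0.0492) and passed in 10 of 25. Among 44 genes of T cell receptor signalling 3 were higher, the CD3 gamma chain Cd3g, the constant region Trbc2 and the calcineurin subunit Ppp3r1, and 3 were lower, among them the protein kinase C gene Prkcq and the diacylglycerol kinase gene Dgkz (median -0.15). Cd3g rose in activated cells from 109, 167 and 168 CPM to 307, 205 and 321 CPM and was 283, 217 and 234 CPM and then 171, 168 and 229 CPM in resting cells (1.28 ± 0.33, adjusted p = 0.00852). Of 39 cytokine receptor, SOCS and Pim genes 1 was called, the common gamma chain Il2rg, which rose from 306, 183 and 203 CPM to 421, 485 and 462 CPM in activated cells and fell from 131, 125 and 119 CPM to 96.4, 84.9 and 83 CPM in resting cells (1.49, adjusted p = 0.00063).

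Of 28 AP-1, Egr and Nr4a immediate early genes and of 9 cytokine genes at 10 CPM or more, 0 were called in either direction by edgeR (medians 0.21 and 0.31). At an unadjusted p under 0.05 these counts were 4 and 0, and DESeq2 called 2 and 0. Over all 7403 genes 8.55% were called, so lists of this size hold few calls at that share. With the replicate block within state 4 of the 28 were called higher and 1 lower. The nuclear receptor Nr4a1, an early target of T cell receptor signalling, fell from 2690, 1020 and 1370 CPM to 225, 245 and 358 CPM in activated cells and was 56.7, 69.4 and 76.6 CPM and then 38.2, 32.6 and 54.6 CPM in resting cells. Its difference of -1.94 ± 0.64 missed the threshold (adjusted p = 0.0506). Irf4, whose level at 0 h was 2240, 2270 and 1810 CPM in activated and 106, 114 and 126 CPM in resting cells, fell in both states by -2.61 and -1.90 (difference -0.71, adjusted p = 0.284). Both Nr4a1 and Irf4 were called lower after 1 h of triptolide, as described with that time below. Of 19 NF-kB subunits and feedback inhibitors 1 was called, Nfkbid, which encodes the nuclear inhibitor IkBNS (-1.75 ± 0.44, adjusted p = 0.00654), at 1690, 1230 and 1370 CPM and then 182, 344 and 321 CPM in activated cells. In resting cells Nfkbid was at 60.3, 73.7 and 89 CPM and then 46.5, 43.4 and 56.1 CPM. Tap1, the peptide transporter of MHC class I presentation, was the 1 called gene of 18 in its list (-0.94, adjusted p = 0.0214): it fell from 800, 660 and 746 CPM to 332, 273 and 379 CPM in activated cells and was 230, 289 and 302 CPM and then 253, 213 and 243 CPM in resting cells. With DRB in the activated arm the values were 0.14 for Nfkbid and 0.06 for Tap1, neither of them called.

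Of 59 genes of deadenylation, decapping, the exosome and nonsense-mediated decay, which make up the decay machinery itself, 3 were left higher in activated cells and 1 lower, with a median of -0.10. That is near the 8.55% called over all genes, and with the replicate block within state 6 were called higher and 6 lower. Lsm3, a subunit of the Lsm ring that binds oligoadenylated mRNA ends and promotes decapping, was at 10.3, 18.4 and 19.4 CPM and then 10.4, 8.7 and 10.5 CPM in activated cells. In resting cells Lsm3 fell from 42.9, 22.9 and 31.8 CPM to 3.32, 2.96 and 3.84 CPM, leaving 3.13% per spike-in against 19.4% in activated cells (2.56 ± 0.55, adjusted p = 0.00125). The others were Wdr61, the SKI8 subunit of the exosome's helper complex (1.95), Btg2, which stimulates deadenylation by the CCR4-NOT complex (1.42), and the decapping factor Dcp1b (-1.63). Btg2 fell in both states, from 340, 356 and 279 CPM to 77.7, 151 and 91.2 CPM in activated and from 240, 384 and 287 CPM to 43.2, 24.7 and 41.5 CPM in resting cells. Of 19 regulators of AU-rich and stem-loop decay 1 was called, Zc3h12a, the endonuclease Regnase-1 (-1.96 ± 0.62, adjusted p = 0.0408), and it passed in 9 of 25 alternatives. Zc3h12a ranged from 31.5 to 144 CPM over the activated libraries at 3 h and rose in resting cells from 30.4, 35 and 21.4 CPM to 136, 131 and 160 CPM.

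Of 25 cell cycle genes 2 were left higher, the mediator cyclin Ccnc (passing in 12 of 25 alternatives) and the helicase subunit Mcm4, and 2 lower, Cdc25b and Ccnd3 (median 0.09). Ccnd3, the D-type cyclin of lymphocytes, rose in both states, from 54.8, 71.6 and 82.9 CPM to 115, 151 and 152 CPM in activated and from 41.7, 61.9 and 61.6 CPM to 269, 266 and 277 CPM in resting cells (-1.30, adjusted p = 0.00455). Per spike-in the 3 h level of Ccnd3 was 69.7% of the start in activated and 154% in resting cells. Of 40 naive-state and quiescence genes 3 were called, all higher: Elf1 (0.75), Btg2 and the thioredoxin inhibitor Txnip (1.52). Of 21 p53 and BCL2 family genes 1 was called (Ccng2, 1.62, passing in 12 of 25 alternatives), of 37 elongation genes 1 (Gtf2h1, 1.05, passing in 9 of 25) and of 39 ATF4 target and tRNA synthetase genes 0 (edgeR; DESeq2 called 2, and 6 had an unadjusted p under 0.05). Of 161 numbered zinc finger (Zfp) genes 2 were higher, Zfp91 and Zfp597, and 2 lower, Zfp831 and Zfp169. Over all 7403 genes 8.55% were called, a larger share than among the Zfp genes. The smaller lists of this paragraph hold few calls at that share.

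Several of the called genes named above share their locus with another annotated gene, so that their counts are uncertain to that extent. On the other strand, Ccnc overlaps Tstd3, Ccnd3 overlaps Bysl, Cdc25b overlaps Spef1, Dkc1 overlaps Mpp1, Elf1 overlaps Wbp4, G6pdx overlaps Ikbkg, Hnrnpk overlaps Rmi1, Prkca overlaps Apoh, Tap1 overlaps Psmb9, Wdr61 overlaps Dnaja4 and Zfp597 overlaps Zfp174 and Naa60. On the same strand, Ppp3r1 overlaps Wdr92 and Zfp91 overlaps Cntf. Hif1a overlaps Gm15283 on the other strand and, like Snapc1, Gm49321 on the same strand. Il2rg, Lsm3, Tuba1a, Tnfrsf18, Txnip and Uqcrb each overlap 1 gene known only by a model name.

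The structure of the transcripts, which the rule did not use, is described for the 2 sets of called genes. Per the GENCODE M21 annotation, the median coding length was 862.5 nucleotides (nt) among the 395 genes left higher in activated cells (390 with a coding transcript), 2185.5 nt among the 238 left lower and 1446 nt over all. The median number of exons was 6, 17 and 10, and the median gene span 18145, 40849.5 and 26241 nt. The 3′ UTRs ran the other way, with medians of 1569.5, 905 and 1151 nt. GC content was 44.7%, 53.4% and 49.7% over the transcript, and 52%, 62.4% and 59% at the third codon position.

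The median difference changed with exon number over the 7403 genes, the called ones included. In genes of 1 to 4 exons the median difference was 0.35 (1180 genes), and it went through 0.15, -0.08 and -0.20 to -0.35 in genes of over 20 exons (1142 genes). Both states had the same order of classes over 3 h, but the resting cells spanned the wider range: medians ran from -1.23 to 0.77 in resting and from -0.78 to 0.42 in activated cells. Every replicate showed this: for genes of 1 to 4 exons the activated medians were -0.64, -0.93 and -0.71 and the resting ones -1.14, -1.34 and -1.04, and for over 20 exons 0.26, 0.53 and 0.44 against 0.68, 0.80 and 0.78. Of the genes with 1 to 4 exons, 9.07% were called higher and 0.0847% lower, and of those with over 20 exons 0.263% and 7.36%. On intron counts, a readout of unspliced RNA, the median difference spanned a wider range. It ran from 0.75 for 1 to 4 exons to -0.72 for over 20 exons. By coding length the intron medians ran from 0.77 to -0.59, and by gene span from 0.53 to -0.69. The part of unspliced RNA in these orders was not tested.

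By coding length the median difference fell from 0.43 in the 597 genes of up to 500 nt to -0.30 in the 1602 genes of over 2500 nt. By gene span it ran from 0.14 in the 1558 genes of up to 10000 nt to -0.26 in the 1210 genes of over 80000 nt, where the medians of the single states were 0.69 in activated and 0.94 in resting cells. Within 1 narrow class of coding length, over 1000 and up to 1500 nt, exon number still separated the genes, with medians of 0.42, 0.08, -0.06 and -0.12 for 1 to 4, 5 to 8, 9 to 12 and 13 to 20 exons (229, 445, 743 and 258 genes). For GC at the third codon position the medians ran from 0.23 in genes of up to 45% to -0.19 in genes of over 66%, but here 1 library pair carried much of it. The resting change in genes of up to 45% was -0.66 in replicate 2 against -0.18 and -0.05 in the others, and in genes of over 66% it was 0.17 against -0.25 and -0.24. Without resting replicate 2 at 0 h the GC range was narrower, 0.17 to -0.11, whereas that by exon number was 0.37 to -0.26. Without resting replicate 3 at 3 h the GC range was 0.281 to -0.225.

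**Figure D4:**
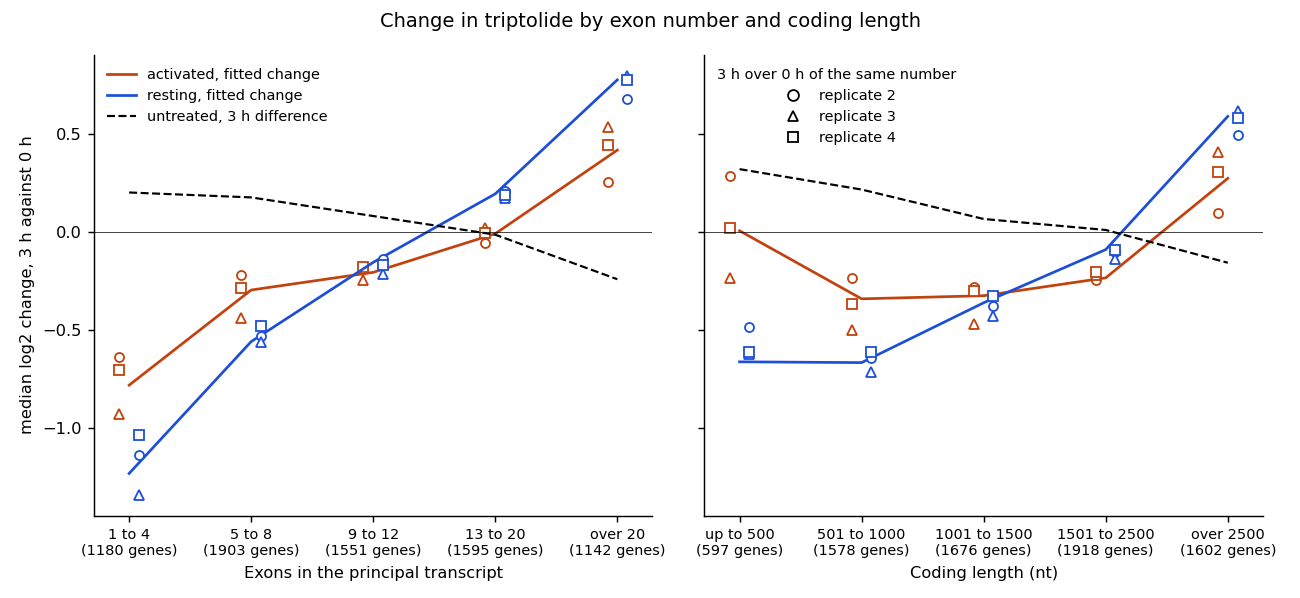
Median change over 3 h of triptolide (log2) by number of exons and by coding length, in activated and in resting cells; lines are the fitted medians, points the medians of each replicate, and the dashed black line the activated-minus-resting difference in untreated cells over 3 h. Resting medians run from -1.23 to 0.77 across exon classes and activated ones from -0.78 to 0.42.

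The same order by exon number appeared without triptolide. In untreated cells, which share no library with the 12, the median of the activated-minus-resting difference over 3 h was 0.20 for genes of 1 to 4 exons and -0.24 for over 20 exons, and by coding length it ran from 0.32 to -0.16. Within that class of coding length the untreated medians were 0.09, 0.07, 0.10 and -0.02, without the spread seen with triptolide. By 3′ UTR length the orders were opposite on exon counts. The triptolide difference ran from -0.15 to 0.04 from the shortest to the longest class and the untreated one from 0.20 to -0.03. For triptolide these 2 classes had medians of -0.045 and 0.085 on coding-sequence counts, but 0.038 and 0.017 on 3′ UTR counts. Without resting replicate 2 at 0 h they were -0.12 and 0.053.

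AU-rich motifs were looked for in the annotated 3′ UTRs, on the sense strand. The pentamer ATTTA occurred in 84.1% of the genes left higher in activated cells, 60.1% of those left lower and 70.2% of all 7403 genes, and its density was 2.44, 1.35 and 1.87 per 1000 nt. The nonamer TTATTTATT, a longer AU-rich motif that contains the pentamer, occurred in 8.72%, 7.56% and 7.87% (34, 18 and 580 genes). The Pumilio motif TGTANATA occurred in 27.4%, 25.6% and 27.9%. Of these 3 motifs the pentamer had the widest spread between the sets, which also differ in 3′ UTR length and GC content. The sites below are the nonamer matches in genes picked by the naming rule, given with the processing, and called at 10 CPM or more. Members named only to complete a count, such as Psma6, are not covered by this list of sites. Each site is shown with the nonamer in capitals and 9 nt of mm10 sequence on each side, 5′ to 3′ on the strand of the gene.
Hif1a, first site: tgcacctttTTATTTATTtatttttgg
Hif1a, second site: cctttttatTTATTTATTtttggtgag
Cd28: gtatttttcTTATTTATTggtttattg
Cycs: tccactgccTTATTTATTacaaaacaa
Zfp91: tgagattccTTATTTATTaatggaaag
Alg5: ttttaaaatTTATTTATTtagcagtct
Ust: gtccttgccTTATTTATTataaccttt
Bcr: cggttcactTTATTTATTtaggttatg

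The 2 windows of Hif1a, chr12:73946006-73946032 and chr12:73946010-73946036 on the plus strand, overlap, so that their nonamers form 1 longer AU-rich stretch that begins near base 312 of the 3′ UTR. Those of Cd28 (chr1:60773206-60773232, plus), Cycs (chr6:50565209-50565235, minus), Zfp91 (chr19:12769224-12769250, minus) and Alg5 (chr3:54749526-54749552, plus) lie in the 3′ UTRs of mRNAs left higher in activated cells. Those of Ust (chr10:8205131-8205157, minus) and Bcr (chr10:75184457-75184483, plus) lie in mRNAs left lower. A match describes these letters and was not tested as a binding site.

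The direction of the difference was then read in libraries that the 12 do not include. In untreated cells, the activated-minus-resting difference over 3 h had a median of 0.35 among the 395 genes, -0.35 among the 238 and 0.06 over all 7403, of which 7.94% were called higher and 9% lower. Of the 395 genes 70 were called higher and 12 lower there (17.7% and 3.04%), and of the 238 genes 9 were called higher and 63 lower (3.78% and 26.5%). Eif5a was among the genes with a large untreated difference (1.76, adjusted p = 2.55e-08), as were Ust (-3.04, adjusted p = 1.42e-05) and Cdc25b (-3.57, adjusted p = 1.02e-09). Mrps22 and Gfi1 went the other way there, with untreated differences of 1.27 (adjusted p = 0.0222) and 1.13 (adjusted p = 0.0313), and Btg2 with -1.29 (adjusted p = 0.00346).

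Triptolide had also been given together with harringtonine, which stops translation initiation, or cycloheximide, which stops elongation. Relative to untreated cells at 0 h, the activated-minus-resting difference after 3 h with triptolide and harringtonine had medians of 0.45, -0.41 and 0.01 among the 395, the 238 and all genes, and with cycloheximide of 0.44, -0.31 and 0.03. It was above 0 in 90.6% of the 395 genes and 10.5% of the 238 with harringtonine (50.6% of all), and in 91.1% and 13.4% with cycloheximide (53.1% of all). These differences share their untreated 0 h libraries with each other and with the untreated comparison. They passed the test in 13 of 7403 genes with harringtonine (0.176%) and in 10 with cycloheximide (0.135%), of which 12 (0.162%) and 7 (0.0946%) were higher. Of the called genes 9 and 6 were among the 395. Lfng (adjusted p = 0.0136 and 0.0197) was called in both, and Btg2 with harringtonine (adjusted p = 0.00738). At 0 h, untreated activated cells held these mRNAs at a median of -0.17 (the 395) and 0.07 (the 238) relative to resting cells.

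**Figure D5:**
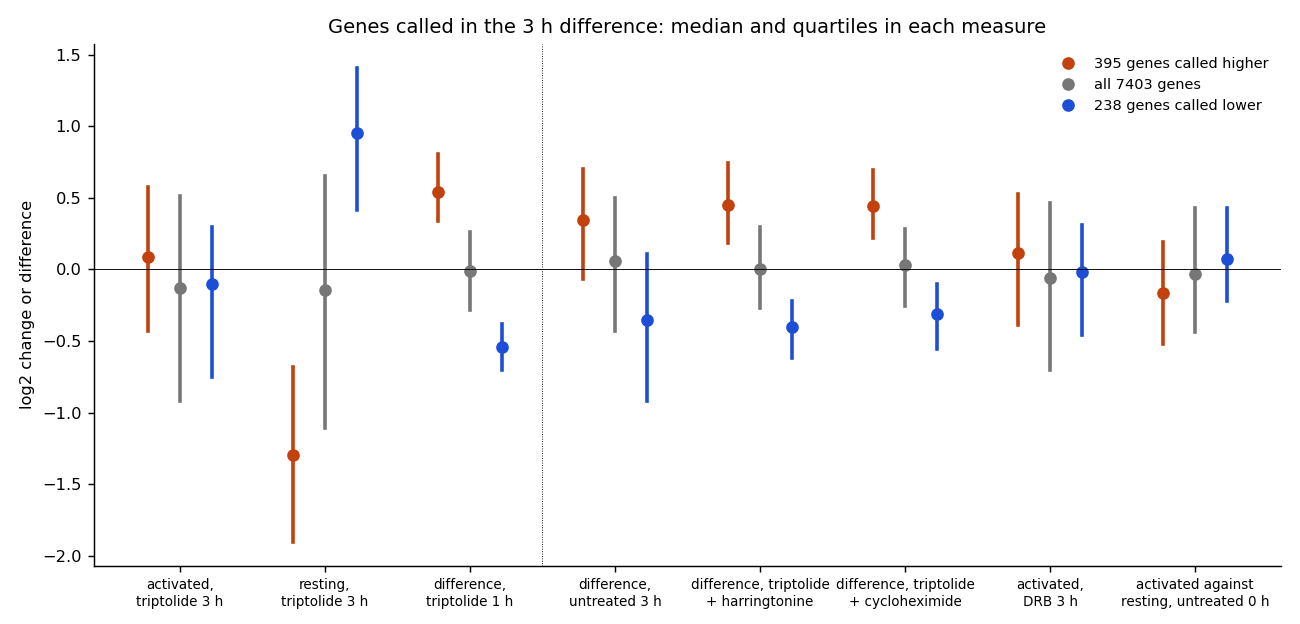
Median (point) and quartiles (line) of the log2 difference or change in 8 measures for the 395 genes called higher, all 7403 genes and the 238 genes called lower; the dotted vertical line divides the measures that share libraries with the 3 h difference from those that do not. In untreated cells the medians are 0.35, 0.06 and -0.35.

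After 1 h of triptolide the differences were smaller. The 1 h comparison uses the same 0 h libraries, so its values are only set beside those at 3 h: the median was 0.54 against 1.32 among the 395 genes and -0.54 against -1.12 among the 238. Of 10997 genes tested, 4 were called at 1 h (0.0364%), and 0 of the 633 was among them. These 4, named after their values were seen, were the activation-induced factors Irf4 (-1.92 ± 0.37, adjusted p = 0.0153), Nr4a1 (-3.04 ± 0.64, adjusted p = 0.0245) and Atf3 (-3.09 ± 0.63, adjusted p = 0.0245), left lower in activated cells, and Casp8ap2 (2.33 ± 0.48, adjusted p = 0.0245), left higher. At 3 h the differences of the first 3 were -0.71, -1.94 and -0.84 and that of Casp8ap2 1.1, with adjusted p from 0.0506 to 0.509. Hif1a differed by 0.69 at 1 h and 1.78 at 3 h, Usmg5 by 1.04 and 2.61, Gfi1 by -1.07 and -1.97, and Prkca by -1.22 and -1.93. Nfkbid differed by -0.59 and -1.75.

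Intron counts, a readout of unspliced RNA in the same libraries, moved in the same direction as exon counts for most of the called genes. Of 10750 genes tested on introns 637 differed between the states (5.93%), 218 higher (2.03%) and 419 lower (3.9%). This split turned round with other scalings: DESeq2's size factors in edgeR gave 924 higher and 139 lower, library size alone 555 and 84, the spike-ins 72 and 7, and the mitochondrial reference 26 and 22. The median intron difference was 1.02 over the 359 genes of the 395 with a value, -0.82 over 237 of the 238 and -0.05 over all. Of the 359 genes 36 were called, all higher on introns, and of the 237 genes 49 were called lower and 1 higher. Hif1a (adjusted p = 4.1e-06), Snapc1 (adjusted p = 1.07e-05) and Gfi1 (adjusted p = 0.00066) were called on introns, and Usmg5 (adjusted p = 0.405), Prkca (adjusted p = 0.985) and Ust (adjusted p = 0.65) were not. Counts over 3′ UTRs alone gave medians of 1.32 and -1.16 for the 2 sets and counts over coding sequence 1.37 and -1.03. The 3′ UTR counts per 100 exon counts changed by -1.78, 2.04 and -2.99 in the activated replicates and by -8.45, -5.03 and -4.76 in the resting ones, without overlap (exact permutation test, two-sided, p = 0.1, the smallest possible). The part of this shift in the differences was not tested.

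Under the minimum of 10 CPM in 1 or both states, 62 of 3338 genes were called (1.86%), 42 higher (1.26%) and 20 lower (0.599%). Several of these were near 0 at the start. The zinc finger gene Zfp365 had 0, 0 and 0 counts in activated cells at 0 h and 26, 6 and 6 at 3 h, and 7, 10 and 8 counts and then 0, 5 and 3 in resting cells. The purinergic receptor gene P2ry1 had 4, 0 and 0 counts and then 48, 21 and 33 in activated cells, and Cpne2, a calcium-dependent membrane-binding protein, 2, 1 and 0 counts and then 54, 17 and 33. Tmem60 had 28, 35 and 29 counts in resting cells at 0 h and 0, 0 and 0 at 3 h, against 10, 12 and 9 and then 5, 1 and 1 in activated cells. Slc7a3, an arginine transporter, was at 0.405, 0.655 and 0.335 CPM and then 8.31, 14.8 and 8.45 CPM in resting cells, and at 13.6, 7.26 and 14.9 CPM and then 34, 29.6 and 27.4 CPM in activated cells (-2.98, adjusted p = 0.00371). The other 3 largest negative differences were those of the clock repressor Ciart (-2.81), Evi5 (-2.67) and Rph3al (-2.33). Nearest to the minimum, Srp14 of the signal recognition particle (2.46) and Ankra2 (1.70) lay just above it, and Atg7 (-1.06) and Rragd (2.45) just below.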

How the data were processed

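The deposited values are HTSeq read counts by the authors, unscaled whole numbers, over exons, coding sequence, 3′ UTRs, introns and ERCC spike-ins. Per the submitters' processing notes, the tools were TopHat2 2.0.13, Bowtie 1.1.1.0 and HTSeq and the genome build was mm10; whether the counting used strand is not given in the sources used here. Exon counts of all libraries, 35 groups of 3, were fitted with edgeR 4.0.16 in R 4.3.3 (TMM factors, filterByExpr, robust quasi-likelihood, 70 residual degrees of freedom) and adjusted over all genes tested; SE is the log2 value over the square root of F. limma 3.58.1 and DESeq2 1.42.0 were also used, the latter as an alternative. The 12 libraries held 672633 to 3017086 exon counts, and counts of 10 CPM or less carry wide errors; 83.4% to 94.4% of their reads were assigned to no gene. The 1 h comparison leaves out resting triptolide replicate 3 at 1 h (6300 counts).

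The members and the gene lists were chosen with earlier results of these data known. The genes named are the 12 largest positive and 12 largest negative called differences at 10 CPM (without predicted genes, pseudogenes and mitochondrial genes), in each list the 2 smallest p values and the 2 most abundant members, called members of lists with few calls, the 4 largest on each side under 10 CPM, and the 2 called genes nearest to 10 CPM on each side. Members outside this rule (such as Psma6) are named to complete a count and were chosen after their values were seen; 1 called member of a list is not reported here. Gene structure is from GENCODE M21 (GRCm38), matched for 22124 of 22322 genes. On simulated counts for this comparison (10616 genes run), 23 of 100 genes planted at 2-fold and 73 of 100 at 4-fold were called, 0 with the wrong sign, with 5 false calls.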

Additional observations from a re-analysis of the deposited data

Results flagged for a closer look

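Each value here was picked out because the activated and the resting cells, the groups of 1 contrast, differed by a test of that difference; groups of 3 libraries are too small for a test of single outlying samples. By edgeR, 633 genes at 10 CPM or more differed in their 3 h change with triptolide, 4 genes in their 1 h change, 1482 genes in their 3 h change without an inhibitor and 637 genes in the 3 h change of intron counts. Among called genes at 10 CPM or more, predicted genes and pseudogenes left out, the 12 largest positive log2 differences at 3 h were those of Tuba1c (3.22), Tuba1a (3.09), Mrpl36 (2.96), Snapc1 (2.92), Amd1 (2.84), Lfng (2.78), Nop10 (2.77), Alg5 (2.69), Cbll1 (2.66), Usmg5 (2.61), Trbv5 (2.61) and Lsm3 (2.56). The 12 largest negative ones in the same set were those of Ust (-2.37), Ankzf1 (-2.24), Gfi1 (-1.97), Zc3h12a (-1.96), Prkca (-1.93), Sap130 (-1.93), Mrps22 (-1.81), Usp21 (-1.81), Zer1 (-1.79), Bcr (-1.78), Kctd2 (-1.76) and Nfkbid (-1.75).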

How the results depend on the processing

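The 633 genes called at 10 CPM became 183 with spike-in scaling, 87 with mitochondrial mRNA scaling, 377 with only the libraries compared in the fit, 402 on coding-sequence counts, 222 on 3′ UTR counts, 338 with untreated 0 h libraries as the start and 1277 with DRB in the activated arm; over all genes tested the 6.47% called became 1.95%, 0.978%, 4.27%, 4.48%, 3.02%, 3.44% and 13.6%. The 3′ UTR counts and the DRB arm were chosen after seeing the data. Leaving out 1 library at a time gave 335 to 655 calls at 10 CPM and 3.35% to 6.64% over all genes. The count was 335 without resting replicate 2 at 0 h and 373 without resting replicate 3 at 3 h. Without activated replicate 2 at 3 h it was 403. All 633 genes kept their sign in each of these fits, which reuse the other libraries that gave the calls. Of the 633, 573 of 579 kept it with 3′ UTR counts and 623 with DRB; of the other 10, Gtf3c3 (1.66) was called in the other direction (-1.78), and Nfkbid (0.14) and Tap1 (0.06) were among the rest. Outside the 633, the values of P2ry1 (-1.42), Zfp365 (-0.88) and Irf4 (1.26) also reversed with DRB. Same-number correlations of deviations were all over 0.1 in resting cells (0.11, 0.28 and 0.20) but not in activated cells (0.19, 0.08 and 0.30), so the numbers were not taken to pair the samples of the whole comparison, although each library correlated best with its own number within its state and the changes given per replicate subtract by number. With a replicate block over both states 898 genes were called at 10 CPM and 20 at 1 h; with a replicate block within state 1597 at 10 CPM, 16.4% over all genes, 2792 for the untreated, 168 for the 1 h and 1286 for the intron difference. The 5118 calls of the activated arm became 8550 with spike-in, 8787 with mitochondrial scaling and 2642 on 3′ UTR counts (leave-one-out 4319 to 4989); the 6104 of the resting arm became 3704 on 3′ UTR counts (leave-one-out 5239 to 5929). The 1482 untreated calls became 437 with mitochondrial scaling and 800 to 1598 leaving out 1 library, with 800 without activated untreated replicate 4 at 0 h. The 4 calls at 1 h became 26 with DESeq2, 0 with spike-in scaling, 18 with no filter, 2 with only the libraries compared, 10 on coding counts and 0 to 18 leaving out 1 library. The 637 intron calls became 1129 with DESeq2 (979 higher, 150 lower), 1063 with DESeq2's size factors (924 and 139), 79 with spike-in, 48 with mitochondrial scaling, 235 with no filter and 273 to 844 leaving out 1 library. The spike-in ratio difference of -0.01 ranged from -0.37 to 0.29 leaving out 1 number. The cause of these moves was not tested. At this depth 2-fold differences were mostly not detectable among the planted genes of the simulated counts (23 of 100 recovered).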
